A study of Homo sapiens with 11 samples.

Results

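Cytosolic ribosomal proteins are the protein parts of the translating ribosome, and 49 of their genes are described here, 31 of the large subunit and 18 of the small subunit. The genes were chosen by name, and the probe sets used were those listed with exactly 1 gene symbol that is one of the 49. On the whole array 19536 symbols had such probe sets. A gene value could be computed for 48 of the 49 genes and for 14520 genes in all. RPS12, a small subunit protein, had only 2 such probe sets and has no gene value.

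The study depleted Tat-SF1, a nuclear factor of transcription elongation and splicing encoded by HTATSF1, in T-REx-293 cells. These are human embryonic kidney 293 cells that express the tetracycline repressor, so that a construct can be switched on with tetracycline. Knockdown cells expressed shRNA A (3 arrays) or shRNA B (3 arrays), both against Tat-SF1, and control cells expressed an shRNA against GFP (3 arrays) or an empty vector (2 arrays). All cells, the controls included, stably carried a GFP plasmid and had been given 2.5 µg/mL tetracycline for 72 h. The GFP shRNA thus had a target in these cells. Total RNA was measured on human exon arrays, and the design text calls the replicates biological. An additional empty vector sample was left out by the submitters on quality grounds.

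Each ribosome needs one copy of nearly every ribosomal protein, and cells make these proteins in matched amounts. Most of their mRNAs begin with a C followed by an unbroken run of pyrimidines, the 5′ terminal oligopyrimidine or TOP tract, through which growth signalling by mTORC1 and the RNA-binding protein LARP1 controls their translation and stability. In the human genome these genes are also known for their many processed pseudogenes, and their introns host many small nucleolar RNAs.

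The start regions are shown because a shared TOP tract is the sequence feature that sets these mRNAs apart. Promoter sequences from RefSeq (GRCh38.p14) matched 41 of the 49 genes. A TOP start was searched on the transcribed strand as a C at the annotated first base followed by at least 4 C or T bases, and it was found in 30 of the 41 genes (73.2%), against 1404 of 27305 genes in the whole table (5.14%). Each line below gives 15 bases before and 15 bases from the annotated start, 5′ to 3′ on the gene's strand, with the TOP tract in capitals. The genes are those with the largest differences between knockdown and control that had an entry, the lower ones first.
RPL13: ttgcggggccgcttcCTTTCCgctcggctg
RPSA: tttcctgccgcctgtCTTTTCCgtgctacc
RPLP0: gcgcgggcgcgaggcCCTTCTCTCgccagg
RPS14: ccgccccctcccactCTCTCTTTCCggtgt
RPS13: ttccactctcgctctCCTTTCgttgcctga
RPL27: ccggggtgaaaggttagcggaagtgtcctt
RPS7: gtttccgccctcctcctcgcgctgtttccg
These windows lie at chr16:89560667-89560696 (plus strand) for RPL13, chr3:39406705-39406734 (plus) for RPSA, chr12:120201097-120201126 (minus) for RPLP0, chr5:150449725-150449754 (minus) for RPS14, chr11:17077653-17077682 (minus) for RPS13, chr17:42998404-42998433 (plus) for RPL27 and chr2:3575245-3575274 (plus) for RPS7. The first 5 have a tract at the annotated start shown, and RPL27 and RPS7 have none at theirs. A gene with several annotated starts was counted if any of them had a tract, in the whole table too. For such a gene the start with the longest tract is shown, so the windows were chosen on this feature. The letters CCGGAAG, a sequence recognised by ETS-family factors, were searched on both strands of the 300 bases around each start. They were found in 12 of the 41 genes (29.3%), against 12.2% of all genes in the table.

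HTATSF1 was lower in the knockdown on every array. Its log2 gene value, the median over its probe sets, was 8.29, 8.21 and 8.22 with shRNA A and 8.11, 8.19 and 8.21 with shRNA B, against 8.53, 8.63 and 8.49 with GFP shRNA and 8.54 and 8.32 with the empty vector. It fell by 0.30 on the log2 scale (SE 0.051; adjusted p = 0.0483, limma with Benjamini-Hochberg adjustment over 14520 genes). That call was lost when any of 10 arrays was left out in turn (adjusted p up to 0.103). In all it was lost in 15 of 22 alternative runs, while the difference stayed negative, from -0.82 to -0.24. The limma adjusted p was 0.358 with the array-name suffix described below as a block, and 0.491 on arrays without it. Correlations between arrays ran from 0.941 to 0.962, and array medians from 7.902 to 7.905. Of the 6 markers listed for the cell line, NEFL and INA stood clearly above the array median, at 9.11 and 9.37 in knockdown and 9.23 and 9.43 in control. NEFM and PAX2 did not, at 7.985 and 8.10 in knockdown and 7.97 and 8.18 in control, near the markers of other cell types. LHX1 and SALL4 had no gene value. The 8 measured markers of blood, fibroblasts, endothelium and hepatocytes were at 7.92 to 8.13 in knockdown and 7.92 to 8.12 in control. The submitters' array names carry an extra suffix on all 3 shRNA B arrays and on shRNA A replicate 3, and on no control array, and the labels do not say what it stands for.

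Over all arrays more ribosomal protein genes had a lower mean in the knockdown than genes at large, by a small amount, and no single gene passed the test. With the suffix in the array names as a block, this comparison reduces to shRNA A replicates 1 and 2 against the controls. There 32 of 48 genes were lower (66.7%) against 68.4% of all genes, so the excess was not seen in those arrays. That estimate takes nothing from shRNA B. For shRNA B against control the block gave 36 of 48 genes lower (75%) against 67.3%, an estimate that hangs on shRNA A replicate 3. Without the block, 41 of 48 genes had a lower mean in knockdown than in control, against 67.2% of all genes tested. The median difference was -0.12 on the log2 scale over the 48 genes and -0.017 over all genes. None of the 48 was called by limma at an adjusted p under 0.05, where 33 of 14520 genes (0.227%) were called. At an unadjusted p under 0.05, 16 of the 48 were lower and 0 were higher, against 12.8% lower and 2.40% higher among all genes. In bulk RNA, fewer transcripts per cell and fewer cells of a kind cannot be told apart.

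Bright genes in general were also lower. The median difference of the 3000 genes with the highest mean was -0.061 between knockdown and control. The mean of the 3000 highest values on each array was 9.26 ± 0.045 in knockdown (SD, n = 6) and 9.33 ± 0.041 in control (SD, n = 5). Of the 48 ribosomal protein genes, 42 lay more than 1 log2 unit above the array median. The part of this general shift in their difference was not tested.

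For each array, each gene's difference from its own control mean was taken, and the median over the 48 genes was -0.0040, -0.059 and -0.098 with shRNA A and -0.25, -0.072 and -0.17 with shRNA B, against 0.058, -0.053 and -0.035 with GFP shRNA and 0.062 and -0.027 with the empty vector. All 3 shRNA B arrays and 2 of 3 shRNA A arrays lay below every control array, and shRNA A replicate 1 lay among the controls. For shRNA A replicate 2 the margin was narrow, -0.059 against -0.053. It lay among the controls with quantile normalization (-0.039) and with only each gene's largest run of probe set numbers, described below (-0.037). With the mean over probe sets all 3 shRNA A arrays lay below every control array. For shRNA A replicate 2 the margin was again narrow, -0.041 against -0.039 on GFP shRNA replicate 2. shRNA B averaged -0.16 ± 0.091 (SD, n = 3) and shRNA A -0.054 ± 0.047 (SD, n = 3), but shRNA B replicate 2 lay above shRNA A replicate 3. On shRNA B replicate 1 all 48 genes were below their control mean, on the other shRNA B arrays 36 were, and on the shRNA A arrays 24, 29 and 36 were. The controls had 17, 31 and 31 with GFP shRNA and 15 and 28 with the empty vector. shRNA B replicate 1 also had the lowest mean of the 3000 highest values, 9.18.

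**Figure D1:**
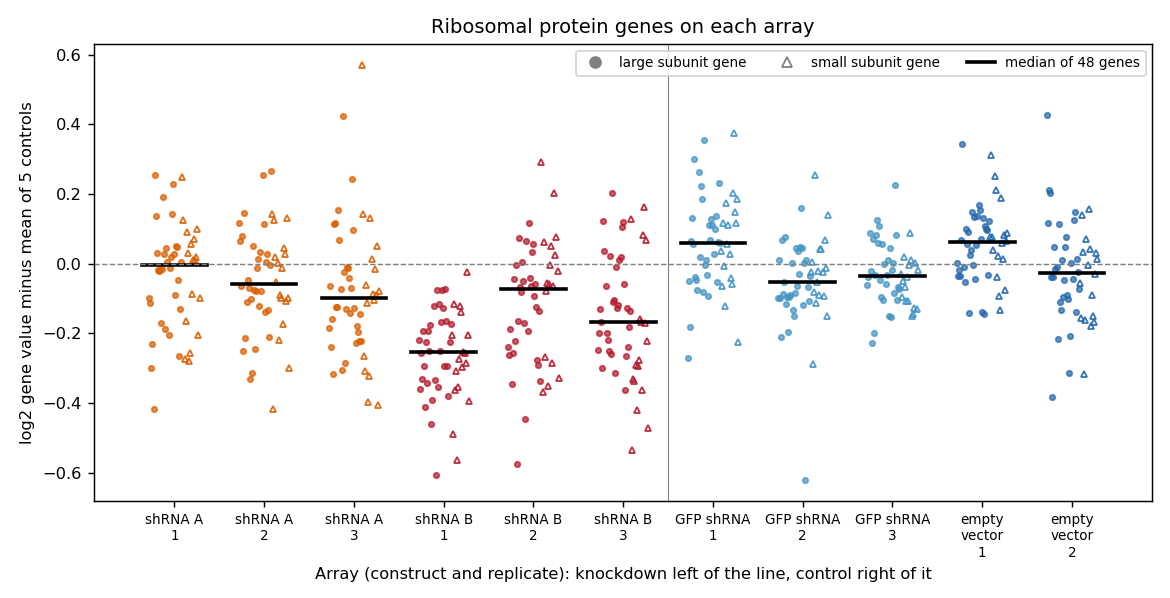
Log2 gene value minus the gene's mean over the 5 controls (vertical axis) for each of 48 ribosomal protein genes on each of 11 arrays, with knockdown arrays left of the line and control arrays right of it. Filled circles are large subunit genes, open triangles small subunit genes and black bars the median of the 48; the lowest bar, at -0.25, is shRNA B replicate 1, and the control bars lie between -0.053 and 0.062.

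The size of the shift changed with the array-name suffix. With the suffix as a block, or on arrays without it, which leaves shRNA A replicates 1 and 2 against the 5 controls, the median difference between knockdown and control was -0.042, against -0.021 over all genes. With shRNA B against control, the block gave a median of -0.13 with 36 of 48 genes lower, against 67.3% of all genes, and no call. The block can be fitted for shRNA B only through shRNA A replicate 3, the 1 array that sets its construct apart from the suffix, and no shRNA B array lacks the suffix. shRNA A replicate 3 was the lowest of the shRNA A arrays, at -0.098.

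Small subunit genes with the most negative differences between knockdown and control included RPS2, RPSA and RPS14. RPS2 (uS5) sits at the entry of the mRNA channel. Its log2 gene value was 11.69, 11.75 and 11.57 with shRNA A and 11.61, 11.62 and 11.67 with shRNA B, against 12.02, 11.91 and 11.93 with GFP shRNA and 11.93 and 12.04 with the empty vector. Every knockdown array lay below every control array. The mean was 11.65 ± 0.064 in knockdown (SD, n = 6) and 11.97 ± 0.059 in control (SD, n = 5), a difference of -0.32 (SE 0.063; limma adjusted p = 0.0517), or 1.24-fold lower. Of its 44 probe sets used, 40 were lower in knockdown. The adjusted p was 0.0365 with no filter on dim probe sets, 0.0287 with a higher floor and 0.0108 without a mean-variance trend, and it ran from 0.0564 to 0.122 when 1 array was left out. With the mean over probe sets the difference was -0.17, with an adjusted p of 0.0766, and over all alternatives the adjusted p reached 0.554.

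RPSA (uS2), which is also described as a laminin receptor, had values of 9.63, 9.43 and 9.65 with shRNA A and 9.33, 9.40 and 9.26 with shRNA B, against 9.50, 9.87 and 9.71 with GFP shRNA and 9.82 and 9.74 with the empty vector. The shRNA B arrays lay below every control array, while the shRNA A arrays overlapped with them. The difference between knockdown and control was -0.28 (SE 0.083; limma adjusted p = 0.136). It was -0.066 when only the largest run of its probe set numbers was used, -0.16 with a higher floor and -0.089 with the mean over probe sets. RPSA had 19 probe sets used, and at least 29 others, listed jointly for RPSA and RPSAP15, were left out by the rule of 1 symbol.

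RPS14 (uS11), the gene whose loss underlies the anaemia of the 5q- syndrome, had values of 9.69, 9.15 and 9.71 with shRNA A and 9.08, 9.20 and 9.03 with shRNA B, against 9.50, 9.57 and 9.47 with GFP shRNA and 9.88 and 9.41 with the empty vector. The 3 shRNA B arrays and shRNA A replicate 2 were below all controls, and the other shRNA A arrays were among them. The difference between knockdown and control was -0.26 (SE 0.13; limma adjusted p = 0.351). It was -0.12 with the mean over probe sets and -0.15 with the suffix as a block.

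Large subunit genes with the most negative differences included RPL13, RPLP0 and RPL30. RPL13 (eL13) had values of 10.16, 10.33 and 10.26 with shRNA A and 10.38, 10.32 and 10.28 with shRNA B, against 10.71, 10.64 and 10.35 with GFP shRNA and 10.65 and 10.54 with the empty vector. GFP shRNA replicate 3, at 10.35, lay below shRNA B replicate 1, so the groups overlapped by that pair. The difference was -0.29 (SE 0.074; limma adjusted p = 0.0898), and all 17 of its probe sets used were lower in knockdown. With the mean over probe sets as the gene value it was -0.22, with an adjusted p of 0.0258, and with no filter on dim probe sets it was -0.13, with an adjusted p of 0.620.

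RPLP0 (uL10) is the base of the ribosomal stalk, which recruits translation factors, and it is often taken as a housekeeping gene. Its values were 10.85, 10.90 and 10.89 with shRNA A and 10.74, 10.82 and 10.88 with shRNA B, against 11.18, 11.05 and 11.01 with GFP shRNA and 11.21 and 11.13 with the empty vector. Every knockdown array lay below every control array. The difference was -0.27 (SE 0.065; limma adjusted p = 0.0812, and 0.036 without a mean-variance trend), and 31 of its 34 probe sets used were lower. RPS2 and RPLP0 were 2 of the 48 genes with such a complete separation downwards, against 2.02% of all genes, and 0 of the 48 separated upwards, against 0.213%. The other stalk proteins RPLP1 and RPLP2 had differences of -0.14 (SE 0.074) and -0.10 (SE 0.095).

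RPL30 (eL30), a protein that in yeast also represses the splicing of its own transcript, had values of 10.69, 10.57 and 10.52 with shRNA A and 10.04, 10.20 and 10.33 with shRNA B, against 10.64, 10.57 and 10.65 with GFP shRNA and 10.78 and 10.60 with the empty vector. The shRNA B arrays were below all controls, and the shRNA A arrays overlapped with them. The difference between knockdown and control was -0.26 (SE 0.10; limma adjusted p = 0.243), and all 7 probe sets were lower. With the suffix as a block it was -0.017.

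Among the other genes with a lower mean in knockdown, RPL24 (eL24), at an intersubunit bridge, had a difference of -0.24 (SE 0.085), and RPS16 (uS9), whose tail reaches the P-site tRNA, had -0.24 (SE 0.075). With the mean over probe sets these were -0.13 for RPL24 and -0.099 for RPS16, and RPS16 was at -0.073 with the suffix as a block. At the other end RPL34 had -0.0061 (SE 0.027), with a mean of 8.06 in knockdown and 8.07 in control, near the array median.

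**Figure D2:**
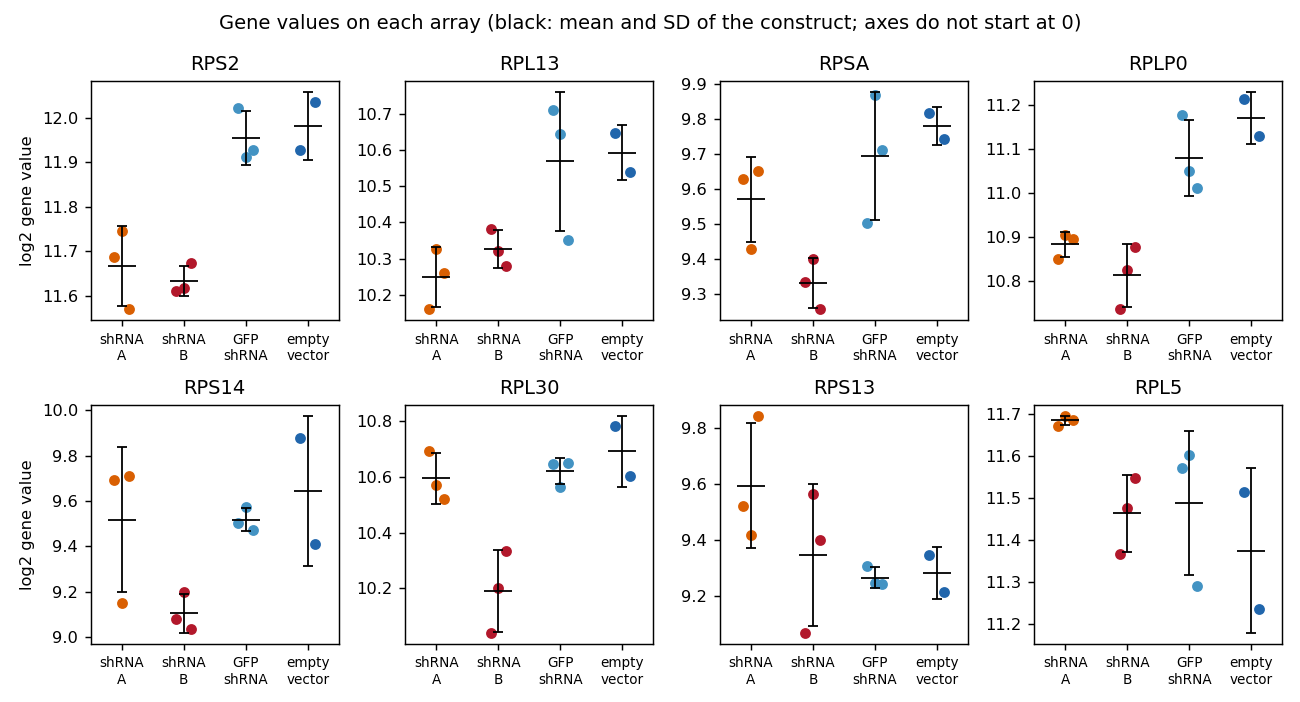
Log2 gene value (vertical axes, which do not start at 0) of 8 genes on each array by construct, with the construct's mean and SD in black (3 arrays each, 2 for the empty vector). RPS2 and RPLP0 separate both shRNAs from both controls, RPS14 and RPL30 are lowest with shRNA B, and RPS13 and RPL5 are highest with shRNA A.

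The 4 genes with the largest positive differences were RPS13, RPL5, RPL27 and RPS7, and none passed the test. RPS13 (uS15), a small subunit protein that in human cells represses the splicing of its own transcript, had values of 9.52, 9.42 and 9.84 with shRNA A and 9.07, 9.57 and 9.40 with shRNA B, against 9.31, 9.25 and 9.24 with GFP shRNA and 9.35 and 9.22 with the empty vector. The shRNA A arrays were above all controls, and shRNA B replicate 1 was below all controls while the other shRNA B arrays were above them. The difference between knockdown and control was 0.20 (SE 0.098; limma adjusted p = 0.358). RPL5 (uL18), which carries 5S rRNA and binds MDM2, had 11.67, 11.70 and 11.69 with shRNA A and 11.37, 11.48 and 11.55 with shRNA B, against 11.57, 11.60 and 11.29 with GFP shRNA and 11.51 and 11.24 with the empty vector, a difference of 0.13 (SE 0.089; limma adjusted p = 0.514). The shRNA A arrays were above every other array. RPL27 (eL27) had a difference of 0.080 (SE 0.11) and RPS7 (eS7) one of 0.067 (SE 0.040).

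All 4 positive differences turned negative when probe sets were combined in another way. A gene value is the median of the levels of a gene's probe sets, so it follows the probe sets nearest the middle. In RPS13, 6 of 9 probe sets were lower in knockdown, in RPL5 17 of 29, in RPL27 5 of 8 and in RPS7 14 of 17. With the mean over probe sets the differences became -0.048 for RPS13, -0.011 for RPL5, -0.026 for RPL27 and -0.094 for RPS7. With that summary 47 of the 48 genes were lower in knockdown, against 66.7% of all genes, with a median of -0.092, and RPL37 was the exception. Over single probe sets, 649 of the 814 used for the 48 genes (79.7%) were lower, against 61.6% of all probe sets used.

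**Figure D3:**
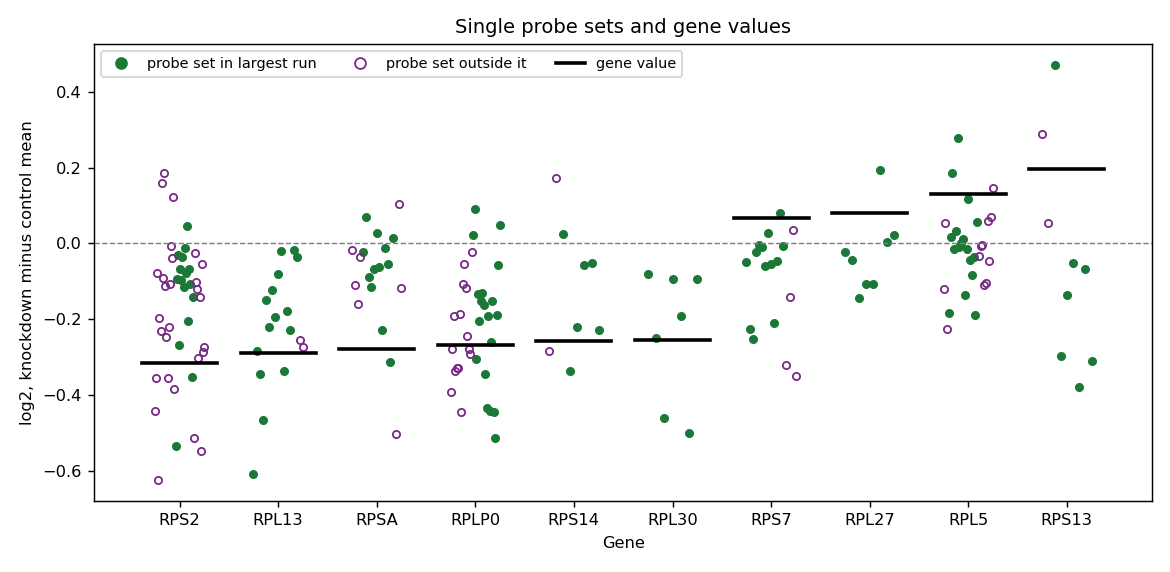
Difference between knockdown and control (vertical axis, log2) of each probe set used for 10 genes, with filled points in the gene's largest run of probe set numbers, open points outside it and black bars for the gene value. RPL13 has all 17 points below 0, and in RPS13, RPL27 and RPS7 most points lie below 0 while the bar lies above it.

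Many of the genes drew probe sets from more than one place. Probe set numbers follow position closely, since 99.7% of neighbouring listed numbers share a symbol, and a gap of more than 200 was taken to start a new run. Of the 49 genes, 33 (67.3%) had more than 1 run, against 9.11% of all symbols. RPS2 had 13 runs, with 18 of its 46 probe sets in the largest, and RPL7A, RPL7 and RPL12 had 9 each. RefSeq lists between 4 (RPS9) and 80 (RPL7A) numbered pseudogenes for the 48 genes, and whether the outlying probe sets bind their transcripts was not tested. Inside the largest run 432 of 533 probe sets (81.1%) were lower in knockdown, with a median of -0.092, and outside it 217 of 281 (77.2%), with a median of -0.11. With the largest run alone, 42 of the 48 genes were lower and the median was -0.099.

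Both were below control in 36 of 48 genes and both above it in 5 (RPS4X, RPL6, RPS7, RPL5 and RPS13), while 7 were higher with shRNA A and lower with shRNA B. Both comparisons share the 5 control arrays. Against control, the median difference was -0.057 with shRNA A, with 36 of 48 genes lower against 65.9% of all genes. It was -0.18 with shRNA B, with 43 of 48 lower against 66.1%. The 3000 genes with the highest mean had medians of -0.063 with shRNA A and -0.062 with shRNA B. With shRNA A the median of the 48 genes was thus no lower than that of bright genes at large.

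With shRNA A, limma called none of the 48 genes, against 1 of 14520 (0.00689%). At an unadjusted p under 0.05, 6 were lower, against 9.02% of all genes, and 2 were higher, against 1.76%. The largest negative differences were those of RPL13 at -0.33 (SE 0.089; adjusted p = 0.218), RPS2 at -0.30 (SE 0.076; adjusted p = 0.200) and RPL3, which shapes the peptidyl transferase centre, at -0.24 (SE 0.11; adjusted p = 0.458). RPS13 at 0.32 (SE 0.11; adjusted p = 0.311), RPL5 at 0.24 (SE 0.097; adjusted p = 0.387) and RPL27 at 0.22 (SE 0.12; adjusted p = 0.547) had the largest positive ones. RPL13, RPL3, RPLP0 and RPS2 had all shRNA A arrays below all controls, 4 of 48 against 6.34% of all genes, and RPL5 and RPS13 had them all above, 2 of 48 against 1.09%.

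With shRNA B, limma called none of the 48 genes, against 9 of 14520 (0.0620%). At an unadjusted p under 0.05, 17 were lower, against 10.6% of all genes, and 0 were higher, against 2.69%. RPS14 at -0.46 (SE 0.13; adjusted p = 0.156), RPL30 at -0.46 (SE 0.087; adjusted p = 0.0779) and RPSA at -0.40 (SE 0.088; adjusted p = 0.105) had the largest negative differences. The largest positive ones were small, RPS13 at 0.073 (SE 0.11), RPS7 at 0.041 (SE 0.048) and RPS4X, the X-linked copy of the small subunit protein eS4, at 0.036 (SE 0.13). All shRNA B arrays lay below all controls for 13 of the 48 genes, against 6.35% of all genes, and above them for 0, against 1.47%.

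**Figure D4:**
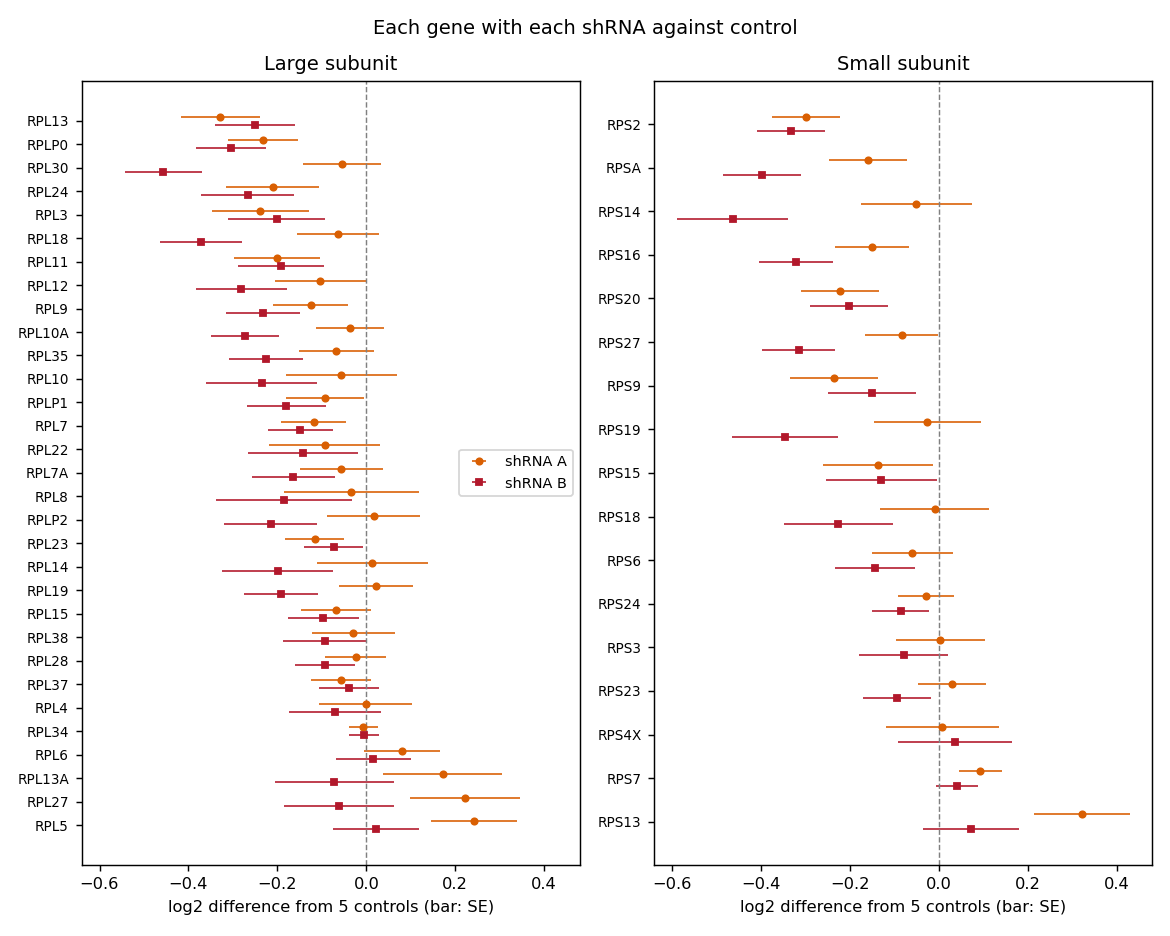
Log2 difference from the 5 controls (horizontal axis, bars are SE) of each ribosomal protein gene with shRNA A (circles) and shRNA B (squares), in the large subunit (left) and the small subunit (right), ordered by the difference of both shRNAs together. Most points lie below 0, and shRNA B lies lower than shRNA A for 38 of 48 genes.

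Set against each other, shRNA B was lower than shRNA A for 38 of 48 genes, against 51.3% of all genes, with a median difference of -0.086 (-0.0010 over all genes). With the suffix as a block the median was -0.043, with 31 of 48 genes lower (64.6%) against 54.8% of all genes. limma called none of the 48 and 0 of 14520 genes, and at an unadjusted p under 0.05, 8 of the 48 were lower, against 2.05% of all genes, and 0 were higher, against 2.37%. All shRNA B arrays lay below all shRNA A arrays for 9 of the 48 genes, against 5.56% of all genes, and above them for 0, against 4.95%. RPS14 differed by -0.41 (SE 0.14), RPL30 by -0.40 (SE 0.097) and RPS19, the gene most often mutated in Diamond-Blackfan anaemia, by -0.32 (SE 0.13), each with an adjusted p of 0.999. RPS19 had 10.78, 11.28 and 10.92 with shRNA B and 11.37, 11.34 and 11.23 with shRNA A. RPS9 at 0.087 (SE 0.11), RPL13 at 0.078 (SE 0.10) and RPL23 at 0.042 (SE 0.074) were the largest in the other direction.

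No ribosomal protein gene passed the test between the controls. GFP shRNA was below the empty vector for 28 of 48 genes (58.3%), against 35.5% of all genes, with a median of -0.020 (0.016 over all genes). The share of lower genes thus also exceeded that of all genes between the control constructs, neither of which targets Tat-SF1. limma called none of the 48, against 1 of 14520 (0.00689%), and at an unadjusted p under 0.05 only RPL10 was lower, against 1.44% of all genes, and 0 were higher, against 3.04%. RPL10 (uL16), which completes the tRNA sites of the large subunit, had 10.27, 10.44 and 10.48 with GFP shRNA and 10.54 and 10.97 with the empty vector, a difference of -0.36 (SE 0.13; adjusted p = 0.945). RPL8 at -0.21 (SE 0.19) and RPS15 at -0.18 (SE 0.15) followed, and RPL4 at 0.13 (SE 0.13), RPL6 at 0.11 (SE 0.11) and RPL5 at 0.11 (SE 0.12) were the largest in the other direction. For RPL8 and RPL4 the sign turned without 1 array, to 0.055 without GFP shRNA replicate 2 and to -0.10 without empty vector replicate 2. RPL5 turned to -0.025 without empty vector replicate 2.

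With both shRNAs pooled, the large and the small subunit genes did not differ in their shift beyond the spread between arrays. In knockdown against control, 27 of 31 large subunit genes were lower, with a median of -0.11, and 14 of 17 small subunit genes, with a median of -0.13. The large subunit median minus the small subunit median on each array was 0.44, 0.28 and 0.56 with shRNA A and 0.068, -0.0035 and 0.26 with shRNA B, against 0.12, 0.30 and 0.27 with GFP shRNA and 0.20 and 0.30 with the empty vector. It averaged 0.27 ± 0.21 in knockdown (SD, n = 6) and 0.24 ± 0.077 in control (SD, n = 5), a difference smaller than the spread between arrays. Taken from each gene's difference from its control mean, it was 0.0044 ± 0.076 in knockdown and -0.0055 ± 0.023 in control (SD, n = 6 and 5). By construct, the difference of medians averaged 0.43 ± 0.14 with shRNA A and 0.11 ± 0.14 with shRNA B (SD, n = 3 each), on either side of control. Taken from the control means, the order was the opposite, at -0.025 ± 0.013 with shRNA A and 0.034 ± 0.11 with shRNA B. The difference between the shRNAs in this respect was not tested.

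Exon usage was examined with the splicing index, the log2 value of a probe set minus its gene value on the same array. None of the 814 probe sets of the 48 genes was called by limma, against 7 of 220910 (0.00317%), and the smallest adjusted p among them was 0.0780. At an unadjusted p under 0.05, 62 were lower in knockdown, against 5.42% of all probe sets, and 83 were higher, against 6.35%. With 1 probe set per gene, the index was lowest in knockdown relative to control in RPS13 at -0.58 (SE 0.14; adjusted p = 0.161), RPS7 at -0.42 (SE 0.078; adjusted p = 0.101), RPS15 at -0.37 (SE 0.16) and RPL5 at -0.36 (SE 0.13). It was highest in RPS2 at 0.50 (SE 0.15; adjusted p = 0.225), RPS18 at 0.45 (SE 0.090; adjusted p = 0.114), RPS14 at 0.43 (SE 0.096) and RPL11, an MDM2-binding partner of RPL5, at 0.39 (SE 0.21).

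The gene value enters each of these indices with the opposite sign. The RPS2 probe set itself was at 9.55 ± 0.24 in knockdown and 9.37 ± 0.19 in control (SD, n = 6 and 5), a difference of 0.19, while the gene value differed by -0.32. The RPS13 probe set was at 10.68 ± 0.20 in knockdown and 11.06 ± 0.12 in control, a difference of -0.38, while the gene value differed by 0.20. Of these 8 probe sets, those of RPS13 and RPL11 lay in the gene's largest run and the other 6 outside it. Among the 20 probe sets of the 48 genes with the smallest p, 14 lay outside the largest run, which holds all but 34.5% of the probe sets used.

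RPS12 was covered by 2 probe sets. The brighter was at 8.86, 8.95 and 9.06 with shRNA A and 8.64, 8.93 and 8.67 with shRNA B, against 9.03, 8.93 and 8.94 with GFP shRNA and 9.25 and 8.94 with the empty vector, a difference of -0.17 that was smaller than the ranges of the groups. The other averaged 7.68 ± 0.065 in knockdown and 7.72 ± 0.069 in control (SD, n = 6 and 5), below the array median.

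Genes with and without a TOP start at any annotated position were also set side by side, with no test. The 29 measured genes with a TOP start had a median of -0.14 between knockdown and control, with 27 lower, and the 11 without one had a median of -0.082, with 7 lower. Start sites in these cells were not measured.

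Related gene lists were read in the same comparison, in which 67.2% of all genes had a lower mean. Of 31 further cytosolic ribosomal proteins, 22 were measured and 20 were lower in knockdown, with a median of -0.14 and no call. RPL41 had -0.33 (SE 0.075; limma adjusted p = 0.0688) and RPL36 -0.29 (SE 0.12), against 0.020 (SE 0.082) for RPL36A and 0.048 (SE 0.060) for RPL27A. Of 7 paralogues, related copies of ribosomal protein genes, 2 were lower, with a median of 0.033 and no call.

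Of 20 measured mRNAs with a TOP tract that encode translation factors and related proteins, 15 were lower, with a median of -0.062. EEF1D, a subunit of the exchange factor for elongation factor 1, was called lower. Its level was 9.40 ± 0.16 in knockdown and 9.84 ± 0.14 in control (SD, n = 6 and 5), a difference of -0.44 (SE 0.083; limma adjusted p = 0.0487). That call was lost with the suffix as a block and on arrays without it, where 0 of 14520 genes were called. EIF3E, a subunit of initiation factor 3, had 0.24 (SE 0.078; adjusted p = 0.172). Of 15 measured regulators of TOP mRNAs, 13 were lower, with a median of -0.049 and no call. CNBP, which binds TOP mRNAs, had -0.27 (SE 0.10), MLST8, an mTOR subunit, -0.18 (SE 0.060), and LARP4 0.11 (SE 0.075). Of 15 measured chaperones and assembly factors of ribosomal proteins, 11 were lower, with a median of -0.078 and no call. The shares of lower genes among the TOP mRNAs and among the assembly factors were near that of all genes. LTV1, a factor of small subunit assembly, had -0.18 (SE 0.069), and RPF2, which helps to place 5S rRNA in the large subunit, 0.18 (SE 0.073).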

How the data were processed

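RNA from 11 T-REx-293 samples was measured on human exon arrays, 6 knockdown and 5 control. The deposited values are 1 log2 value per probe set and array. Which software, background correction and normalization produced them is not given in the sources used here. Values recorded as missing were set aside (13190 to 15431 per array). GEO's platform annotation gave 355799 of 1399022 probe sets exactly 1 gene symbol, 15195 several and 1028028 none, and 2876 of 19536 symbols were updated through RefSeq.

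Probe sets were kept if no array lacked a value and their mean reached the 50th percentile of all probe-set means (7.91), which left 220910, and the gene value is their median on each array where a gene had at least 4. Differences were tested with limma 3.58.1 (lmFit, eBayes with trend) in R 4.3.3, across all genes or probe sets, with Benjamini-Hochberg adjustment and a threshold of 0.05. The knockdown comparison pooled both shRNAs and both controls. A probe set that is itself the median on each array has a splicing index without spread, which limma offsets from zero. The scripts were tested on simulated data. The number of arrays limits the precision.

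Members and lists were chosen with earlier results of these data known. Genes were named by rule: the target, any gene that passed, the 6 lowest and 4 highest differences between knockdown and control, genes whose groups did not overlap, 3 in each direction in the other comparisons, 4 probe sets in each direction for the splicing index, and in the other lists any that passed or 2 in each direction. RPL24, RPS16, RPL34, RPLP1 and RPLP2 were named after their values were seen. Arrays were not paired by replicate number in the main fit.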

Additional observations from a re-analysis of the deposited data

Results flagged for a closer look

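In 46 groups of arrays examined (each named gene and the group summaries, in knockdown and in control), 4 had an array whose gap to the nearest other exceeded the 95% critical value of Dixon's test, a limit that chance passes in about 1 of 20 groups. RPL3 was at 11.78 on GFP shRNA replicate 1, against 11.27 to 11.42 on the other controls. RPL8 was at 11.71 on GFP shRNA replicate 2, against 12.44 to 12.56 on the other controls. RPL4 was at 12.18 on empty vector replicate 2, against 12.54 to 12.65 on the other controls. RPL6 was at 11.70 on shRNA B replicate 1, against 11.86 to 11.95 on the other knockdown arrays. No difference between the shRNAs passed the test for a ribosomal protein gene.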

How the results depend on the processing

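The median difference of the ribosomal protein genes stayed negative between knockdown and control in every alternative run, from -0.15 to -0.042. It moved by more than 1 SD between arrays (0.068) only when the suffix in the array names was blocked or arrays carrying it were left out (-0.042 in both). Both of those estimates compare shRNA A replicates 1 and 2 with the controls and take nothing from shRNA B. The median ran from -0.16 to -0.098 when 1 array was left out, with 39 to 42 genes lower and 0 called. With shRNA A it ran from -0.074 to -0.039 and with shRNA B from -0.21 to -0.13 without 1 array, shRNA B against shRNA A from -0.15 to -0.060, and GFP shRNA against the empty vector from -0.067 to 0.024. With the suffix as a block, the median was -0.13 with shRNA B and -0.043 between the shRNAs. The difference between large and small subunit ran from -0.028 to 0.085 without 1 array and from 0.0099 to 0.14 in the other alternatives.

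Calls depended on the settings. All genes called in knockdown numbered 33, and 19 with no filter on dim probe sets, 130 with the 75th percentile as floor, 140 with the mean of probe sets, 2 with a minimum of 2 probe sets, 86 without the trend, 0 with the suffix as a block or on arrays without it (1279 and 1188 at an unadjusted p under 0.05), 10 with the replicate block, and 2 to 67 without 1 array (67 without empty vector replicate 2, 2 to 11 without any other). Ribosomal protein genes called numbered 1 with no filter (RPS2), 1 with the higher floor (RPS2), 1 with the mean (RPL13) and 2 without the trend (RPLP0 and RPS2). With shRNA A, 9 genes were called with no filter, 3 with the higher floor, 14 with the mean, 10 without the trend, 0 with a minimum of 2 probe sets, quantile normalization or either use of the suffix, and 0 to 2 without 1 array. With shRNA B, 1 was called with no filter, 29 with the higher floor, 14 with the mean, 4 with a minimum of 2 probe sets, 18 with signal above the array median, 0 with the suffix block, 4 with the replicate block, and 0 to 10 without 1 array. Ribosomal protein genes called with shRNA B numbered 1 with the higher floor, the mean, or no trend. Between the shRNAs 3 genes were called with the higher floor, 1 with a minimum of 2 probe sets and 0 to 1 without 1 array. Between the controls 0 were called with no filter, the higher floor, a minimum of 2 probe sets, signal above the array median, no trend, either use of the suffix or the replicate block, and 0 to 2 without 1 array.

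For the splicing index, probe sets called numbered 11 with no filter, 19 with the higher floor (1 of a ribosomal protein gene), 2 with the mean, 0 with either use of the suffix or the replicate block, and 0 to 95 without 1 array, where 0 of a ribosomal protein gene were called in any.

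Signs turned as follows. Between knockdown and control, the mean gave RPS13 -0.048, RPL5 -0.011, RPL27 -0.026 and RPS7 -0.094. The higher floor gave RPL5 -0.038 and RPS7 -0.032, and the largest run, added after seeing the data, RPL5 -0.023 and RPS7 -0.027. With shRNA B, RPS13 was -0.10 with the mean, -0.30 with the suffix block and -0.037 to 0.21 without 1 array. RPS7 was -0.013 with no filter, -0.026 with the higher floor, -0.11 with the mean and -0.027 in the largest run. RPS4X was -0.078 with the mean and -0.047 to 0.18 without 1 array. Between the shRNAs, RPS9 was -0.069 with no filter and -9.1e-06 with the higher floor, and RPL23 was -0.031 with the mean and -0.0050 to 0.093 without 1 array. Between the controls, RPL8 ran from -0.37 to 0.055, RPL4 from -0.10 to 0.37 and RPL5 from -0.025 to 0.25 without 1 array, and RPL5 was -0.083 in the largest run. The cause was not tested.

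Same-numbered arrays of different constructs had deviations that correlated at -0.15 to 0.27. Differently numbered arrays were not set beside them, so these values do not decide whether the numbers pair the arrays. With the replicate block the median difference between knockdown and control was -0.11, with 0 ribosomal protein genes called. shRNA B could not be fitted on arrays without the suffix.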
